A study of Sus scrofa with 6 samples.

Results

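Heat-shock proteins and chaperonins are the chaperones that fold new proteins and hold or refold damaged ones. HSP70 proteins bind exposed stretches of a client with the help of J-domain proteins (DNAJ), which deliver clients, and of nucleotide exchange factors (HSP110 and BAG proteins), which release them. HSP90 completes the folding of many kinases and steroid receptors, the ring-shaped chaperonins CCT (cytosol) and HSP60/HSP10 (mitochondria) enclose their clients, and small heat-shock proteins hold clients until HSP70 takes over. HSF1 is the transcription factor that switches on the inducible members under heat or other protein damage. CCT folds actin and tubulin.

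The genes described here were the rows of the deposited gene table whose symbol names a member of these families. HSPA5, the HSP70 of the endoplasmic reticulum, was left out. This gave 72 of the 22164 rows, with 71 symbols, because HSPH1 stood in 2 rows. There were 22 DNAJC, 9 DNAJB and 4 DNAJA genes, 9 genes of CCT subunits, 8 HSP70 genes, 6 small heat-shock genes, 5 BAG genes, 4 HSP110 rows, 2 mitochondrial chaperonin genes, 2 HSF genes and 1 HSP90 gene. Not all of them act in the cytosol. HSPA9, HSPD1, HSPE1, DNAJA3, DNAJC11, DNAJC15, DNAJC19, DNAJC28 and DNAJC30 are known as mitochondrial, and HSPA13, DNAJB9, DNAJB11, DNAJB12, DNAJB14, DNAJC1, DNAJC3, DNAJC10, DNAJC14 and DNAJC16 as proteins of the endoplasmic reticulum.

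Preadipocytes from subcutaneous fat of 5-day-old Junmu white pigs were treated for 48 h with recombinant human TGF-β1 at 10 ng/mL (TGF-β1 group) or with citric acid at 10 mM as the negative control (NC group). Each group had 3 samples, which the study describes as biological replicates. The labels give each sample a pig name with a number of its own but do not say whether the 6 cultures came from separate animals, so the p-values measure the spread between these samples. Total RNA without ribosomal RNA was sequenced, and expression was given as FPKM, fragments scaled to transcript length and to the number of mapped fragments.

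FPKM over all genes summed to 392976 to 404489 in the TGF-β1 samples and to 418531 to 448468 in the NC samples. The files hold no read counts. Depth relative to NC replicate 1 was estimated from low FPKM values. It was 0.740 to 0.842 in the TGF-β1 samples and 0.778 to 1 in the NC samples. Each estimate rested on only 24 to 28 genes. The paper reports more raw reads for the TGF-β1 group than for the control, so these depths are uncertain. Of 12 preadipocyte and stromal markers, 11 were found, and each was above an FPKM of 1 in every sample, while none of the 4 adipocyte markers found reached 1 in every sample. The cultures also held macrophage transcripts, with 10 markers summing to 71.8 to 401 in the TGF-β1 samples and to 138 to 613 in the NC samples. Contractile markers summed to 11604 to 13976 in the TGF-β1 samples and to 9989 to 15448 in the NC samples. Epithelial markers were low but separate, with sums of 3.58 to 5.00 in the TGF-β1 samples and of 0.0378 to 0.250 in the NC samples. The part of any of these cells in the results was not tested. In bulk RNA, fewer cells of a type and less RNA per cell cannot be told apart.

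Among the members, 66 exceeded an FPKM of 0.1 in 3 or more of the 6 samples and were tested with all other genes by limma on log2(FPKM + 0.1). None passed at an adjusted p of 0.1, in a comparison where 0.096% of the 17708 genes tested passed, 0.0508% with a higher and 0.0452% with a lower level in the TGF-β1 group. The smallest adjusted p of a member was 0.414. At an unadjusted p of 0.05, limma gave 5 members, where 9.98% of all genes reached it. It gave 2 members (3.03%) with a higher level, BAG3 and HSPB8, against a background of 2.72% of all genes. It gave 3 (4.55%) with a lower level, HSPA8, HSPE1 and DNAJC25, against a background of 7.26%. This split depended on the setting. There were 4 higher and 1 lower after scaling to the same total, against 5.47% and 2.83% of all genes. The split was 0 higher and 5 lower with a trended robust fit, against 2.67% and 8.94% of all genes. With the replicate number as a block the split was 0 higher and 4 lower, against 3.64% and 9.44% of all genes. The median log2 fold change of TGF-β1 over NC was -0.08 for the members and -0.10 for all genes tested.

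The groups did not overlap in 14 members (21.2%), against 18.1% of all genes. The 3 TGF-β1 values lay below the 3 NC values in 12 members (18.2%), where 14.3% of all genes did so. They lay above the NC values in 2 members (3.03%), where 3.83% of all genes did so. Scaling every sample to the same FPKM total moved the median of all genes by 0.12, to 0.02, and that of the members to 0.05. Under that scaling the TGF-β1 values lay below the NC values in 3 members, HSPA8, DNAJC25 and DNAJC27, against 5.62% of all genes, and above them in 14, against 9.91%. Signs of small log2 fold changes therefore depended on the scaling, and the changes are given below on the deposited scale, also relative to the median of all genes where that matters. Members with a mean FPKM of at least 1 varied little within a group. Their median coefficient of variation was 7.05% in the TGF-β1 group and 7.19% in the NC group, where all such genes had 10.3% and 11.3%. The members and all such genes were not matched for level in this comparison.

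**Figure D1:**
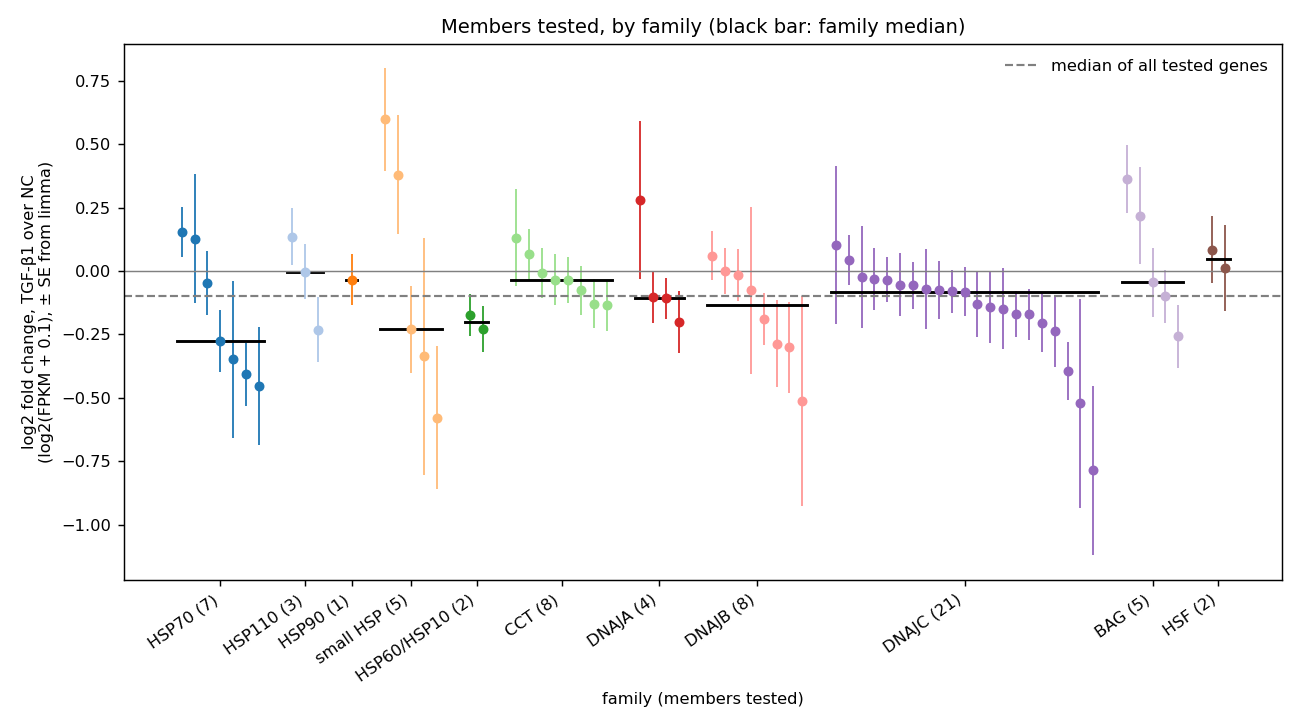
Log2 fold change of TGF-β1 over NC (y axis, log2(FPKM + 0.1)) of the 66 members tested, grouped by family on the x axis, with the number tested in parentheses. Points are genes, vertical lines are limma's standard error, black bars are family medians and the dashed line is the median of all genes tested (-0.10). Most points lie close to that line, and the standard errors of the small heat-shock genes are wide.

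The 8 HSP70 genes were led by HSPA8, the constitutive cytosolic HSP70 that serves folding of new proteins and clathrin uncoating. HSPA8 ranked 101 among all genes by mean FPKM. It had an FPKM of 698, 545 and 579 in the TGF-β1 samples, against 781, 830.3 and 792 in the NC samples. All 3 TGF-β1 values were below the NC values, and TGF-β1 replicate 1 was nearest to them. The means of 607 ± 80.6 in the TGF-β1 group and 801 ± 25.8 in the NC group (SD, n = 3 each) made the TGF-β1 mean 24.2% lower. The log2 fold change was -0.41 (standard error 0.12, 95% interval -0.72 to -0.097), or -0.31 relative to the median of all genes. It did not pass (adjusted p = 0.433, unadjusted p = 0.0191, limma). The unadjusted p was 0.0622 after scaling to the same total and 0.0603 to 0.0629 without TGF-β1 replicate 2, TGF-β1 replicate 3 or NC replicate 2. It stayed below 0.05 without TGF-β1 replicate 1 (0.00605), NC replicate 1 (0.0425) or NC replicate 3 (0.0432). The same held for median-ratio scaling (0.0491), the replicate number as a block (0.0432) and a trended robust fit (0.00464), all by limma. With quantile normalization the log2 fold change was -0.23 with an unadjusted p of 0.143. HSPA8 made up 20.4% ± 1.82 of the summed FPKM of the members in the TGF-β1 group and 24.4% ± 0.844 in the NC group (SD, n = 3 each), with no overlap of the samples. This share rests on the same HSPA8 values and is no separate result. As a share of all FPKM, the members summed to 0.725% to 0.772% in the TGF-β1 samples and to 0.741% to 0.767% in the NC samples.

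The stress-inducible HSP70 was not among the members by name. The table lists it as HSP70.2, a symbol to which RefSeq assigns the synonyms HSPA1A and HSPA1B, which are near-identical copies whose fragments cannot be told apart. HSP70.2 had an FPKM of 17.1, 14.9 and 16.0 in the TGF-β1 samples, against 16.6, 15.5 and 15.3 in the NC samples. The groups overlapped, and the log2 fold change was 0.02 (standard error 0.10, 95% interval -0.23 to 0.26, limma adjusted p = 0.955). The ratio of HSPA8 to HSP70.2 was 37.8 ± 2.65 in the TGF-β1 group and 50.8 ± 3.42 in the NC group (SD, n = 3 each), with no overlap. HSPA8 itself had no overlap, so this ratio is no separate result. HSPA1L, a relative known from testis that overlaps HSP70.2 in the RefSeq annotation, was at most 0.0895 in any sample and was not tested. HSPA6 is not analysed here. A further 3 rows carry the symbol HSP70 (gene32854, gene32962 and gene34333), and which HSP70 gene they stand for is not given. Their means lay between 0.191 and 0.621 in the TGF-β1 group and between 0.252 and 0.616 in the NC group, and all 3 overlapped between groups (log2 fold changes -0.61 to -0.42, limma adjusted p of 0.692 to 0.903).

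The remaining HSP70 genes differed in direction. HSPA9, the HSP70 of the mitochondrial matrix (mortalin), had an FPKM of 86.5, 88.6 and 78.3 in the TGF-β1 samples, against 71.5, 77.8 and 78.5 in the NC samples. These groups overlapped by the lowest TGF-β1 value, and the log2 fold change was 0.15 (standard error 0.10, limma adjusted p = 0.636). Scaled to the same total, HSPA9 had 0.28 with no overlap and an unadjusted p of 0.0365. HSPA2, a member best known from spermatogenesis, had 20.8, 15.9 and 13.7 in the TGF-β1 samples and 28.5, 22.5 and 18.3 in the NC samples. These groups overlapped, at a log2 fold change of -0.45 (standard error 0.23, unadjusted p = 0.104, adjusted p = 0.571, limma). With the replicate number as a block the unadjusted p of HSPA2 was 0.00898 (adjusted p = 0.307, limma). After scaling to the same total the unadjusted p was 0.178. HSPA13, a microsomal member, depended on 1 library: its FPKM was 12.2, 25.4 and 23.6 in the TGF-β1 samples and 27.7, 25.0 and 21.9 in the NC samples. Without TGF-β1 replicate 1, the log2 fold change of HSPA13 was -0.016, against -0.35 with it. HSPA12A and HSPA12B, distant relatives of HSP70, had means of 2.92 and 3.48 in the TGF-β1 group and 3.56 and 3.28 in the NC group. The groups of HSPA12B overlapped and those of HSPA12A did not (log2 fold change of HSPA12A -0.28, standard error 0.12, limma adjusted p = 0.526). After scaling to the same total the groups of HSPA12A overlapped too. HSPA14, a ribosome-associated member, had 10.7 ± 0.458 in the TGF-β1 group and 11.1 ± 1.47 in the NC group (SD, n = 3 each). Summed over the family, FPKM was 746 ± 77.4 in the TGF-β1 group and 943 ± 26.4 in the NC group (SD, n = 3 each), most of it HSPA8.

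**Figure D2:**
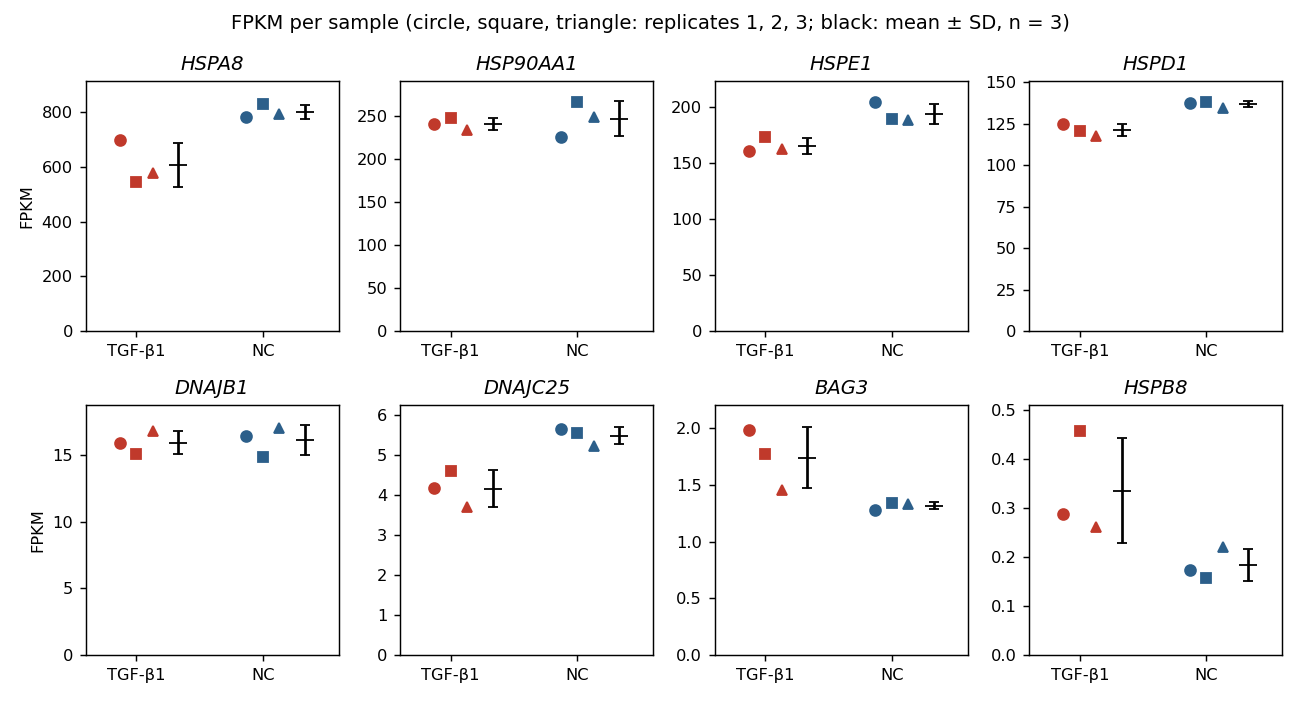
FPKM (y axes, from 0) of 8 members in the TGF-β1 and NC samples (x axes). Circles, squares and triangles are replicates 1, 2 and 3, and black marks are the mean ± SD (n = 3). HSPA8, HSPE1, HSPD1 and DNAJC25 lie lower in the TGF-β1 samples with no overlap, BAG3 and HSPB8 lie higher with no overlap, and HSP90AA1 and DNAJB1 overlap, while none passed limma's adjusted test.

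Of the nucleotide exchange factors, the HSP110 genes overlapped between the groups. HSPA4 (APG-2), the most abundant, had an FPKM of 83.1 ± 3.98 in the TGF-β1 group and 83.4 ± 7.38 in the NC group (SD, n = 3 each), with a 95% interval of -0.27 to 0.27 for the log2 fold change. The main HSPH1 row (gene20756), which encodes the heat-inducible HSP105, had 15.5, 15.5 and 14.0 in the TGF-β1 samples and 14.4, 14.4 and 12.1 in the NC samples. The groups overlapped, and the log2 fold change was 0.14 (standard error 0.11, limma adjusted p = 0.703). Scaled to the same total, HSPH1 had 0.26 with no overlap and an unadjusted p of 0.0322. A second HSPH1 row (gene20755) was at most 0.168 and was not tested. HSPA4L (APG-1) had 12.6, 14.4 and 12.3 in the TGF-β1 samples and 16.5, 16.3 and 13.4 in the NC samples (log2 fold change -0.23, standard error 0.13, limma adjusted p = 0.596).

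The BAG proteins bind the ATPase domain of HSP70. BAG3, which directs clients of HSP70 to selective autophagy and is inducible by HSF1, had an FPKM of 1.99, 1.77 and 1.46 in the TGF-β1 samples, against 1.28, 1.34 and 1.33 in the NC samples. All 3 TGF-β1 values were above the NC values, with replicate 3 closest. Its log2 fold change was 0.36 (standard error 0.13, 95% interval 0.029 to 0.70), it did not pass (adjusted p = 0.479, unadjusted p = 0.0381, limma), and it was 0.49 after scaling to the same total. The unadjusted p of BAG3 lay above 0.05 whichever sample other than TGF-β1 replicate 3 was left out, between 0.0758 and 0.1004. BAG4, a silencer of death receptors, had 4.55, 4.36 and 3.64 in the TGF-β1 samples and 4.96, 5.37 and 4.67 in the NC samples. These groups did not overlap, and the log2 fold change was -0.26 (standard error 0.12, limma adjusted p = 0.554). BAG1, the most abundant BAG gene, had 29.4 ± 1.504 in the TGF-β1 group and 31.5 ± 2.54 in the NC group (SD, n = 3 each). BAG2, an inhibitor of the ubiquitin ligase STUB1, and BAG6, which hands tail-anchored proteins on, had overlapping groups and log2 fold changes of 0.22 and -0.044.

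Of the 35 J-domain genes, 33 were tested, with a median log2 fold change of -0.10, equal to that of all genes at 2 decimals. Their FPKM summed to 566 ± 1.44 in the TGF-β1 group and to 619 ± 27.7 in the NC group (SD, n = 3 each). The ratio of these means was 0.914, equal at 3 decimals to that of the FPKM summed over all genes. In 7 of the 33 the TGF-β1 values all lay below the NC values, where 14.3% of all genes did so, and in none above, where 3.83% did so. Scaled to the same total, 2 lay below (DNAJC25 and DNAJC27), against 5.62% of all genes, and 4 above (DNAJB11, DNAJB14, DNAJC13 and DNAJC16), against 9.91%.

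Class A J-domain proteins carry clients to HSP70 through a zinc-binding region. DNAJA1 was the most abundant J-domain gene, with an FPKM of 109.8, 113 and 113 in the TGF-β1 samples, against 122, 119.6 and 120.5 in the NC samples. The spread within each group was small, so the groups did not overlap at a log2 fold change of only -0.11 (standard error 0.081, limma adjusted p = 0.678), which is close to the median of all genes and turned to 0.023 after scaling to the same total. DNAJA2, its partner in HSC70 folding, had 27.3, 28.5 and 27.8 in the TGF-β1 samples and 36.7, 31.4 and 28.5 in the NC samples (log2 fold change -0.20, limma adjusted p = 0.619). Its groups did not overlap, but the lowest NC value lay close to the highest TGF-β1 value. DNAJA3 (mitochondrial, also named TID1) had 17.6 ± 1.38 and DNAJA4 had 2.77 ± 0.176 in the TGF-β1 group, against 18.9 ± 0.946 and 2.38 ± 0.927 in the NC group (SD, n = 3 each).

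Class B J-domain proteins include DNAJB1, the main inducible partner of HSP70 (HSP40). DNAJB1 had an FPKM of 15.9, 15.1 and 16.8 in the TGF-β1 samples, against 16.5, 14.9 and 17.1 in the NC samples. The 2 groups covered nearly the same range, at a log2 fold change of -0.017 (standard error 0.10, 95% interval -0.27 to 0.24, limma adjusted p = 0.962). DNAJB9, an inducible J-domain protein of the endoplasmic reticulum (ERdj4), had 45.5, 17.2 and 47.3 in the TGF-β1 samples, against 48.2, 47.5 and 47.0 in the NC samples. TGF-β1 replicate 2 stood apart in DNAJB9, and the log2 fold change of -0.51 (standard error 0.41, limma adjusted p = 0.695) was -0.037 without it. DNAJB11 (ERdj3), another J-domain protein of that compartment, had 22.9, 24.7 and 23.4 in the TGF-β1 samples and 21.2, 24.3 and 22.6 in the NC samples. DNAJB4 differed more between replicates than between groups, with 26.3, 36.6 and 19.8 in the TGF-β1 samples and 28.5, 38.7 and 20.2 in the NC samples. DNAJB12, a membrane protein of the endoplasmic reticulum, had 13.2, 13.4 and 12.2 in the TGF-β1 samples and 15.3, 15.5 and 13.5 in the NC samples, with no overlap (log2 fold change -0.19, limma adjusted p = 0.584). DNAJB13, a gene of sperm flagella, was listed at 0 in all samples other than TGF-β1 replicate 2.

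Class C is the largest and most varied class, in which many members have a single client. Of its 21 tested genes, 19 had a log2 fold change below 0, where 66.9% of all genes did, and 10 lay below the median of all genes. DNAJC25 had an FPKM of 4.18, 4.61 and 3.69 in the TGF-β1 samples, against 5.65, 5.55 and 5.24 in the NC samples. The groups did not overlap, and the log2 fold change was -0.40 (standard error 0.11, 95% interval -0.68 to -0.11). DNAJC25 did not pass (adjusted p = 0.414, unadjusted p = 0.0157, limma), and its unadjusted p was 0.0443 after scaling to the same total and 0.0144 to 0.0496 with a sample left out. DNAJC10 (ERdj5), a disulphide reductase that was the most abundant class C gene, had 42.2, 45.0 and 43.4 in the TGF-β1 samples and 49.4, 51.4 and 46.3 in the NC samples. These groups also did not overlap (log2 fold change -0.17, standard error 0.091, limma adjusted p = 0.585). DNAJC27, which joins a small GTPase to a J-domain, was low, with 0.165, 0.402 and 0.364 in the TGF-β1 samples and 0.507, 0.848 and 0.449 in the NC samples (log2 fold change -0.79, standard error 0.33, limma adjusted p = 0.518). DNAJC4 had no overlap either, at a log2 fold change of -0.080. DNAJC3 (p58IPK), a co-chaperone of HSPA5, had 25.7 ± 1.63 in the TGF-β1 group and 26.7 ± 0.0448 in the NC group (SD, n = 3 each). DNAJC7, which links HSP70 and HSP90, had 26.4, 28.5 and 26.6 in the TGF-β1 samples and 31.7, 32.2 and 28.0 in the NC samples. DNAJC24, needed for diphthamide synthesis, was the most positive of those with a mean of at least 1, at 0.10 (standard error 0.31). DNAJC6, the neuronal uncoating factor auxilin, was at most 0.0693 and was not tested.

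Only 1 HSP90 gene, the inducible HSP90AA1, fell under the rule. HSP90AA1 had an FPKM of 239.8, 247 and 234 in the TGF-β1 samples, against 226, 265 and 249 in the NC samples. The TGF-β1 values lay inside the NC range, at a log2 fold change of -0.035 (standard error 0.10, 95% interval -0.29 to 0.22, limma adjusted p = 0.915). The constitutive HSP90AB1 is listed in the table under its older symbol HSPCB, as RefSeq pairs them, and so was no member. HSPCB had 436, 419 and 388 in the TGF-β1 samples, against 524, 517 and 473 in the NC samples. These groups did not overlap, and the log2 fold change of HSPCB came to -0.28 (standard error 0.098, adjusted p = 0.458, unadjusted p = 0.0310, limma). After scaling to the same total it was -0.15 with an unadjusted p of 0.1125. The ratio of HSPCB to HSP90AA1 was 1.72 ± 0.0838 in the TGF-β1 group and 2.06 ± 0.229 in the NC group (SD, n = 3 each), with no overlap. It rests on the same HSPCB values and is no separate result.

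The other genes of these pathways were taken from a list of 51 co-chaperones and related genes, of which 45 were found and 44 tested. None passed limma at an adjusted p of 0.1. At an unadjusted p of 0.05 there were 7 of the 44 (15.9%) with a lower level, where 7.26% of all genes were. There were 0 with a higher level, where 2.72% of all genes were. There were 1 lower and 1 higher after scaling to the same total, where 2.83% and 5.47% of all genes were, and 1 lower and 0 higher without TGF-β1 replicate 2, TGF-β1 replicate 3, NC replicate 1 or NC replicate 2, where 3.91% to 6.12% of all genes were lower and 2.05% to 2.79% higher. Their median log2 fold change was -0.10, the same as that of all genes at 2 decimals. The TGF-β1 values lay below the NC values in 15 of the 44 (34.1%), where 14.3% of all genes did so. They lay above them in 1 (2.27%), where 3.83% of all genes did so. After scaling to the same total they lay below in 7 (15.9%), against 5.62% of all genes, and above in 6 (13.6%), against 9.91%. The following co-chaperones were picked after their values had been seen. TRAP1, the HSP90 of mitochondria, had an FPKM of 24.0, 22.1 and 22.0 in the TGF-β1 samples and 28.1, 29.0 and 28.5 in the NC samples (log2 fold change -0.33, standard error 0.088, limma adjusted p = 0.396). ST13 (HIP), which stabilizes HSP70 bound to its client, averaged 41.1 ± 0.845 in the TGF-β1 group and 49.6 ± 3.17 in the NC group (SD, n = 3 each). STIP1 (HOP), which joins HSP70 to HSP90, averaged 65.5 ± 3.64 in the TGF-β1 group and 66.1 ± 4.07 in the NC group (SD, n = 3 each), and its groups overlapped.

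HSPD1 (HSP60) and HSPE1 (HSP10) form the chaperonin of the mitochondrial matrix, and RefSeq places their genes next to each other. HSPE1 had an FPKM of 160.5, 173 and 162 in the TGF-β1 samples, against 204, 189 and 188 in the NC samples. HSPD1 had 125, 121 and 118 in the TGF-β1 samples, against 137, 138 and 135 in the NC samples. In both genes the groups did not overlap. The log2 fold change was -0.23 for HSPE1 (standard error 0.091, adjusted p = 0.494, unadjusted p = 0.0485, limma) and -0.17 for HSPD1 (standard error 0.083, adjusted p = 0.548, unadjusted p = 0.0853, limma). The unadjusted p of HSPE1 lay above 0.05 whichever sample was left out, between 0.0627 and 0.131. Relative to the median of all genes the changes were -0.13 and -0.075. After scaling to the same total they were -0.10 and -0.045, and the groups then overlapped in both. The ratio of HSPE1 to HSPD1 was 1.37 ± 0.0754 in the TGF-β1 group and 1.42 ± 0.0625 in the NC group (SD, n = 3 each), and overlapped between groups. HSPA9, the HSP70 that works before this chaperonin, had the opposite sign.

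The 8 subunits of CCT were all expressed well above the filter, and their FPKM summed with CCT6B to 995, 911 and 908 in the TGF-β1 samples, against 974, 1005 and 882 in the NC samples. The sums overlapped. No subunit had separate groups on the deposited scale, while after scaling to the same total CCT4, CCT6A, CCT7 and TCP1 had higher TGF-β1 values with no overlap, as 9.91% of all genes had. Log2 fold changes ran from -0.13 for CCT8 to 0.13 for CCT3, which was 0.0086 without TGF-β1 replicate 1 and 0.27 without TGF-β1 replicate 2, with a family median of -0.035 and adjusted p-values of 0.674 to 0.986 from limma. Although they share a ring in equal numbers, the subunits differed in FPKM: the highest was 3.14 ± 0.374 times the lowest in the TGF-β1 group and 2.99 ± 0.148 times in the NC group (SD, n = 3 each).

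CCT3 and CCT7 were at the top of that order. CCT3 had 229, 158 and 198 in the TGF-β1 samples and 163, 210.4 and 158 in the NC samples, so it varied most among the subunits within both groups. CCT7 had 183 ± 12.2 in the TGF-β1 group and 188 ± 9.80 in the NC group (SD, n = 3 each), inside the range of CCT3. CCT2 had 139 ± 4.11 in the TGF-β1 group and 152 ± 10.9 in the NC group, and CCT8 had 126 ± 6.04 in the TGF-β1 group and 139 ± 9.84 in the NC group (SD, n = 3 each). CCT4 followed with 87.4 ± 3.56 in the TGF-β1 group and 89.6 ± 3.92 in the NC group (SD, n = 3 each). CCT5, TCP1 and CCT6A formed the low end, with means of 72.6, 68.4 and 65.7 in the TGF-β1 group and of 76.5, 65.4 and 66.1 in the NC group. TCP1 and CCT6A did not differ beyond their spread in either group. CCT6B, a subunit known from testis, was at most 0.135 and was not tested.

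**Figure D3:**
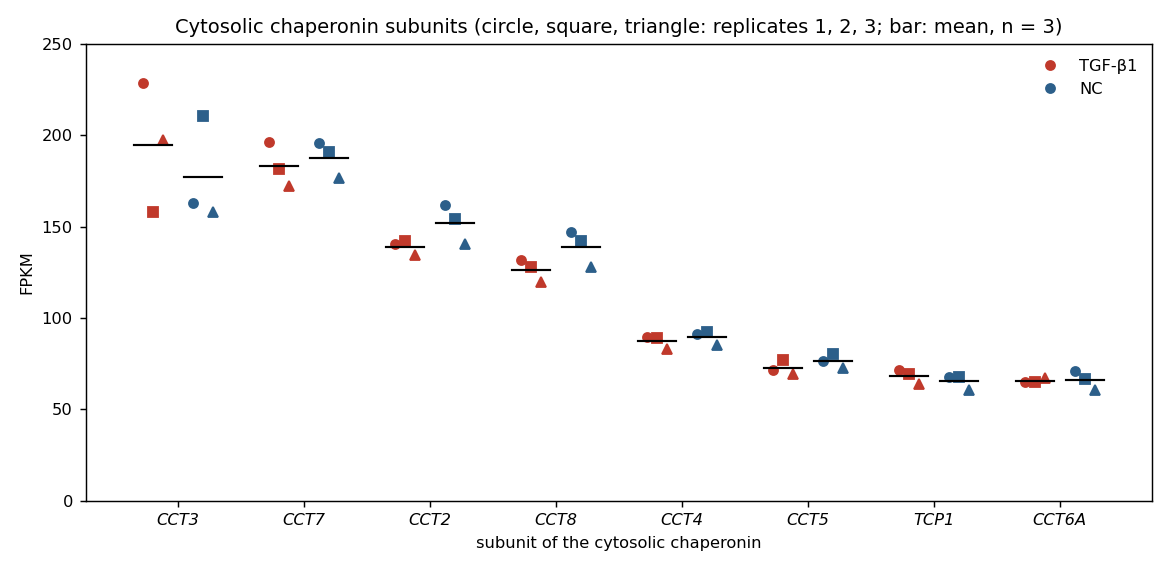
FPKM (y axis) of the 8 main subunits of the cytosolic chaperonin (x axis, ordered by mean level) in TGF-β1 (red, left of each pair) and NC (blue) samples. Circles, squares and triangles are replicates 1, 2 and 3, and bars are means (n = 3). On the deposited scale the groups overlap in every subunit, and the spread between subunits is larger than that between groups.

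Small heat-shock genes were low under the rule, with 3 of 6 at a mean FPKM of at least 1. HSPB7, known from heart and muscle, had 8.39, 7.005 and 8.56 in the TGF-β1 samples and 7.26, 7.17 and 4.33 in the NC samples. Its groups overlapped (log2 fold change 0.38, standard error 0.24, limma adjusted p = 0.626), and the change was 0.14 without NC replicate 3. HSPB8, a partner of BAG3 in selective autophagy, had 0.287, 0.458 and 0.262 in the TGF-β1 samples, against 0.174, 0.156 and 0.221 in the NC samples. All TGF-β1 values of HSPB8 lay above the NC values, at a level where the added 0.1 weighs on the result. The log2 fold change of HSPB8 came to 0.60 (standard error 0.20, adjusted p = 0.457, unadjusted p = 0.0282, limma), and with a pseudocount of 1 it was 0.17 with an unadjusted p of 0.0949. Without NC replicate 1 or 2 the unadjusted p was 0.0738 or 0.0858. On the deposited scale HSPB8 and BAG3 were the 2 members (3.03%) with higher TGF-β1 values and no overlap, where 3.83% of all genes had this. After scaling to the same total there were 14 such members, against 9.91% of all genes. HSPB3, a muscle gene, had 0.696, 0.657 and 0.762 in the TGF-β1 samples and 1.66, 1.077 and 0.736 in the NC samples. HSPB11, which carries the family symbol but is a component of intraflagellar transport, had 8.24 ± 1.28 in the TGF-β1 group and 9.68 ± 1.41 in the NC group (SD, n = 3 each). HSPB9 was listed at 0 in TGF-β1 replicate 3 and in every NC sample.

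HSPB2 and CRYAB are neighbours that overlap in the RefSeq annotation, so the fragments of one may be counted in the other. HSPB2 had 1.90, 1.85 and 2.54 in the TGF-β1 samples and 4.95, 1.35 and 2.71 in the NC samples. Without NC replicate 1 its log2 fold change turned from -0.34 to 0.11. CRYAB (αB-crystallin) had 74.5, 66.5 and 64.8 in the TGF-β1 samples and 85.0, 75.5 and 54.1 in the NC samples. HSPB1, listed in the table by its older symbol HSP27 and therefore no member, had 39.3, 26.9 and 25.1 in the TGF-β1 samples and 37.3, 31.1 and 8.398 in the NC samples. NC replicate 3 was the lowest sample for both HSP27 and CRYAB, and neither passed (log2 fold changes 0.48 and -0.037, adjusted p = 0.801 and 0.956 from limma). NC replicate 3 also had the lowest sum of the contractile markers, at 9989, while NC replicate 1 had the highest, at 15448. In both groups, the order of the samples in that sum was the order in HSP27, CRYAB, HSPCB and 9 of the 66 members, among them HSPA2 and HSF1 (13.6%), where 9.37% of all genes had it. No member had the order of the macrophage markers in both groups, where 7.71% of all genes had it. The part of contractile cells in these values was not tested.

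HSF1 and HSF2, the heat-shock transcription factors, were low and overlapped between the groups. HSF1 had an FPKM of 4.26, 3.27 and 2.81 in the TGF-β1 samples, against 3.56, 3.32 and 3.24 in the NC samples. HSF2 had 3.75, 4.91 and 4.02 in the TGF-β1 samples and 3.96, 4.17 and 3.74 in the NC samples. HSF1 and HSF2 had log2 fold changes of 0.011 and 0.084 and adjusted p-values of 0.985 and 0.840 from limma. HSF4, a heat-shock factor best known from the lens, stood on the co-chaperone list and was picked after its values had been seen. HSF4 had 3.04, 3.01 and 2.86 in the TGF-β1 samples, against 4.27, 4.61 and 3.38 in the NC samples. These groups did not overlap, also after scaling to the same total. HSF4 did not pass (log2 fold change -0.44, standard error 0.14, unadjusted p = 0.0235, limma adjusted p = 0.452), and its unadjusted p was 0.0512 to 0.0725 whichever sample other than NC replicate 3 was left out.

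The heat-inducible list was HSPA1A, HSPA1B, HSPA1L, HSPA6, HSPA8, HSPH1, HSP90AA1, DNAJB1, DNAJA1, HSPB1, HSPB8, HSPD1, HSPE1, BAG3 and CRYAB. The list thus includes HSPA8, described above as the constitutive HSP70, which had its most negative log2 fold change (-0.41). HSPA1A and HSPA1B (as HSP70.2), HSPB1 (as HSP27) and CRYAB are not members and are left out of the counts that follow. The log2 fold changes of HSP70.2, HSP27 and CRYAB were 0.019, 0.48 and -0.037. Their groups overlapped on the deposited scale, and none passed. Of the members on the list, 9 rows were tested and none passed. Their median log2 fold change was -0.035, with 3 above 0 and 6 below 0, where 66.9% of all genes lay below 0. Of these 9, HSPA8, HSPE1, HSPD1 and DNAJA1 had lower TGF-β1 values with no overlap, BAG3 and HSPB8 had higher ones with no overlap, and HSPH1, DNAJB1 and HSP90AA1 overlapped. The shares of all genes without overlap were 14.3% lower and 3.83% higher. After scaling to the same total, HSPE1, HSPD1 and DNAJA1 overlapped and HSPH1 lay higher with no overlap. The genes of the list did not share a direction.

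By compartment, a split made after the values were seen, the 9 mitochondrial members had a median log2 fold change of -0.10, the 10 members of the endoplasmic reticulum of -0.11 and the remaining 47 tested of -0.076, against -0.10 for all genes. None of these groups held a member that passed. Under 13 symbols of these families RefSeq names genes that the table does not list by that symbol. HSPCB and HSP27 were described above. A further 6 (BAG5, DNAJB6, DNAJC2, DNAJC9, DNAJC18 and HSPB6) were found by LOC number, and 5 are not analysed here. None of the 6 passed, with log2 fold changes from -0.20 to 0.11 and a smallest adjusted p of 0.585 from limma. HSPB6, a small heat-shock protein of muscle, had 3.09, 3.08 and 3.12 in the TGF-β1 samples, against 3.50, 3.26 and 4.00 in the NC samples, with no overlap. BAG5 had no overlap either, with 6.26, 6.19 and 6.79 in the TGF-β1 samples and 6.88, 7.03 and 7.41 in the NC samples. Of all genes, 14.3% had lower TGF-β1 values with no overlap.

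**Figure D4:**
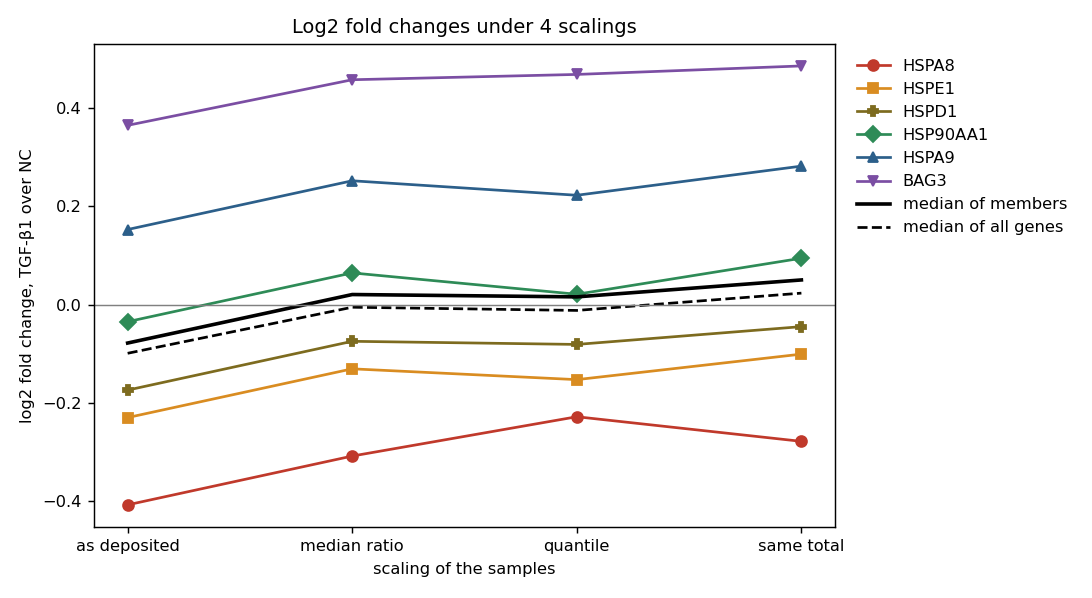
Log2 fold change of TGF-β1 over NC (y axis) for 6 members and for the medians of the members and of all genes, under 4 scalings of the samples (x axis). Lines join the values of a gene. HSPA8 stayed lowest of the 6, between -0.41 and -0.23, BAG3 stayed highest, between 0.36 and 0.49, and HSP90AA1 crossed 0.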

How the data were processed

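After depletion of ribosomal RNA and trimming, the authors mapped the reads to Sscrofa10.2. The deposited FPKM values, 1 per gene and sample, came from StringTie 1.3.1, and an aligner is not named in the sources used here. FPKM is already scaled to depth and length, and without strand-specific counts overlapping genes can share fragments. From these files, members were matched by symbol, with RefSeq (Sscrofa11.1) used for names and neighbours. The members and lists were chosen with earlier results of these data known. Genes that exceeded an FPKM of 0.1 in 3 or more of 6 samples were tested by limma 3.58.1 (R 4.3.3, default lmFit and eBayes) on log2(FPKM + 0.1). Benjamini-Hochberg adjustment ran over all genes tested, with the study's threshold of 0.1. The study also required a fold change above 1, and no minimum fold was set here. The fold changes understate those of low genes. Family sums and medians are descriptions with no test. Relative depth came from genes with an FPKM below 0.5, where equal fragment numbers give a fixed ratio. The lncRNA table was not used.

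The genes named with values were, by rule, any that passed, the heat-inducible list, the most abundant of each family, and, among members with a mean FPKM of at least 1, the most changed of each family in either direction and those with separate groups and an absolute log2 fold change of at least 0.5. Others, DNAJC27 among them, were added after their values were seen. Alternatives were pseudocounts of 1 and 0.01, no filter, a minimum mean FPKM of 1, median-ratio, same-total and quantile scaling, a trended robust fit, the replicate number as a block, each sample left out, and an adjusted p of 0.05.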

Additional observations from a re-analysis of the deposited data

How the results depend on the processing

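No member and no co-chaperone passed under any alternative, and the 447 alternative values of the 28 named and tested members gave a smallest adjusted p of 0.244. The count of all genes that passed (17) was 49 with a pseudocount of 0.01, 11 with no filter, 5 with a mean FPKM of at least 1, 32 with quantile normalization, 46 with the trended robust fit, 9 at an adjusted p of 0.05, and 15 to 41 with a sample left out (41, 36 and 30 without TGF-β1 replicate 1, 2 or 3). Members at an unadjusted p of 0.05 (5) numbered 1 to 6 with a sample left out, where 6.23% to 11.2% of all genes were at that threshold. The fewest members and the lowest share of all genes were both found without NC replicate 2.

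Across all genes tested, same-numbered samples deviated together in replicates 1 and 3 (r = 0.251 and 0.196) but not in replicate 2 (r = 0.0039). Across the members r was -0.012, 0.153 and 0.185 for replicates 1, 2 and 3. In neither set did every sample correlate best with its own number, so the numbers were not taken as pairs. The summed macrophage markers nevertheless rose with the replicate number in both groups, and the summed contractile markers fell with it. With the replicate block, 3 of all genes and 0 members passed.

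The median log2 fold change of the members (-0.08) was 0.021, 0.050 and 0.016 with median-ratio, same-total and quantile scaling. In the same order it was -0.10, -0.073 and -0.12 for HSP60/HSP10, 0.065, 0.094 and 0.048 for CCT and -0.034, -0.0041 and -0.041 for DNAJB. With median-ratio and same-total scaling it was 0.064 and 0.094 for HSP90 and -0.0058 and 0.024 for DNAJA. With same-total scaling it was 0.046 for DNAJC and 0.17 for HSF. With no filter DNAJB had -0.076. With a sample left out the medians ran from -0.32 to -0.016 for HSP70 and from -0.28 to -0.091 for DNAJB.

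The log2 fold change moved across 0, from below to above, in 19, 23 and 20 of the 66 members with median-ratio, same-total and quantile scaling, and in none from above to below. Of the members named by rule, signs turned in those that follow, none of which passed. With median-ratio, same-total and quantile scaling HSPA4 had 0.097, 0.13 and 0.073, HSP90AA1 0.064, 0.094 and 0.021, and DNAJB1 0.082, 0.11 and 0.075. DNAJA1 had 0.023 with same-total scaling, and BAG1 had 0.029 and 0.0058 with same-total and quantile scaling. With a sample left out, values ran from -0.076 to 0.045 for HSPA4, -0.097 to 0.020 for HSP90AA1, -0.79 to 0.11 for HSPB2, -0.055 to 0.53 for DNAJA4, -0.074 to 0.025 for DNAJB1, -0.16 to 0.42 for DNAJC24 and -0.025 to 0.16 for HSF2. HSPB2 turned without NC replicate 1 and DNAJA4 without NC replicate 3. The cause of these changes was not tested. Depth was only estimated, and only relative to a sample, so no counting interval could be given for low genes such as HSPB8 and DNAJC27.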
